A study of Mus musculus with 6 samples.

Results

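Lrg1, Lcn2, Orm1, Orm2 and Orm3 encode secreted proteins of the acute phase response, and they make up 5 of the 16135 genes in the table of liver expression described here. They were picked by name as acute phase glycoproteins and lipocalins, with their higher levels in the ACSS2-HKO livers already known from these same libraries. Their difference between genotypes is therefore given as a description, with no test, and nothing is supported by it. The study asked what ACSS2, the enzyme that makes acetyl-CoA from acetate in the cytosol and nucleus, does in alcoholic liver disease. Livers labelled ACSS2-HKO, from mice that the study describes as knockouts in hepatocytes only, were set against livers of floxed mice labelled ACSS2-flox, with 3 libraries in each group. Mice of both genotypes had received the Lieber-DeCarli liquid diet with ethanol for 10 days and 1 ethanol binge, so the comparison is between genotypes in ethanol-fed mice, and no animals without ethanol are analysed here. The sources used here give neither the driver of the Cre recombinase nor the strain, sex and age of the mice.

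Acute phase proteins are plasma proteins whose synthesis in hepatocytes changes within hours of infection or tissue injury, mainly under interleukin-6 acting through STAT3 and interleukin-1 acting through NF-kB and C/EBP factors, with glucocorticoids as a further input. Orosomucoid, also called alpha-1-acid glycoprotein, is a heavily glycosylated plasma lipocalin that binds basic and lipophilic small molecules, and the mouse carries a cluster of 3 genes for it. Lcn2 is a lipocalin that binds bacterial siderophores and so withholds iron from bacteria. Lrg1 is a leucine-rich repeat glycoprotein known for modulating transforming growth factor beta signalling in endothelial cells. Hepatocytes make all these proteins, and neutrophils store Lcn2 and Lrg1 in their granules.

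In the GRCm38 annotation the 3 orosomucoid genes lie side by side on the plus strand of chromosome 4, with Orm1 at chr4:63344556-63348163, Orm3 at chr4:63356069-63359506 and Orm2 at chr4:63362449-63365877, each with 6 exons. Lrg1 lies on the minus strand at chr17:56119678-56121946 with 2 exons, and Lcn2 on the minus strand at chr2:32384637-32387739 with 6 exons. Orm1 and Orm2 were identical at 89.9% of 624 aligned coding bases. Orm2 and Orm3 were identical at 88.0% of them, and Orm1 and Orm3 at 86.1%. Lcn2 has the lipocalin fold as well, yet its coding sequence matched those of the orosomucoids at only 47.9% to 49.0% of aligned bases.

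The sequence just upstream of each gene is shown because transcription of these genes is the point at which STAT3, C/EBP, NF-kB and the glucocorticoid receptor are known to act. RefSeq promoter entries of GRCm38.p6 matched 4 of the 5 genes, and Orm1 was not among them. The lines below give the upstream bases of Orm2 at chr4:63362199-63362448 and of Orm3 at chr4:63355908-63356068, both on the plus strand, and of Lrg1 at chr17:56122002-56122196 on the minus strand, each 5′ to 3′ and ending just before the first annotated exon. Capitals mark the letters TTNNGNAA of a C/EBP-type site and TGTTCT of a glucocorticoid receptor-type site, on either strand.
Orm2: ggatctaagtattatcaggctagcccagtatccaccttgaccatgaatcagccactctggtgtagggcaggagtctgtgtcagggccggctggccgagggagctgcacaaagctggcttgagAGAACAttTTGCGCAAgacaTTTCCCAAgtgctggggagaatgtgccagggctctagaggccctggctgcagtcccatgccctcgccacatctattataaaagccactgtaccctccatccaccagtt
Orm3: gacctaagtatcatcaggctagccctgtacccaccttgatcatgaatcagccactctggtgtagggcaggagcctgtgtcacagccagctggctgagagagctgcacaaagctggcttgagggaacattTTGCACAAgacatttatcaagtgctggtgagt
Lrg1: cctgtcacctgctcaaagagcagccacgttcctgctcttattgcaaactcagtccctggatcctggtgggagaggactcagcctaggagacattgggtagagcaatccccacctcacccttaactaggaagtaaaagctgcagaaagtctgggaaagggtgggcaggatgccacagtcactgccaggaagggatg
The 250-base promoter windows of Orm2 and Orm3 were identical at 85.5% of aligned bases. The last 89 bases of the Orm3 window, not printed above, lie inside the annotated gene. Within the shared stretch, the glucocorticoid receptor-type site and the second C/EBP-type site of Orm2 had no exact match in Orm3. The first C/EBP-type site was matched in both. Counted back from the end of each window, it lay at 120 to 113 bases in Orm2 and 121 to 114 bases in Orm3.

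The upstream window of Lcn2 lies inside an annotated exon of a longer Lcn2 transcript, and the part of the Lrg1 window next to the start of Lrg1 also lies inside an annotated exon, so only the 30 bases around each match are shown for these. Capitals mark the C/EBP-type letters or the letters of an NF-kB-type site, GGG and CC with any 5 bases between them, on either strand, at chr2:32387937-32387966 and chr2:32387822-32387851 for Lcn2 and at chr17:56121961-56121990 for Lrg1, all minus strand.
Lcn2 C/EBP: agcccttcctgTTGCTCAAccttgcacagt
Lcn2 NF-kB: ggtaaaggatGGACTACCCCgcccaacagg
Lrg1 NF-kB: acccggccctGGGCTCTTCCtgctttgcct
Over the 250-base promoter windows, C/EBP-type letters were present in 3 of the 4 genes and in 36.9% of all 27025 RefSeq promoters. NF-kB-type letters were present in 2 of the 4 genes and in 45.4% of all promoters, and the glucocorticoid receptor-type letters in 1 of the 4 and in 16.2%. The STAT-type letters TTCNNNGAA were present in 0 of the 4 windows and in 7.18% of all promoters. None of the matches overlapped another, and a match of letters does not show that a factor binds there.

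The values are FPKM, fragments scaled to transcript length and library size, and each library rested on 33717125 to 39474527 fragments as implied by the table itself. Albumin and the other 11 hepatocyte markers were detected in all 6 libraries, with summed levels of 51007 to 60058 FPKM in ACSS2-HKO livers and 61076 to 91121 FPKM in ACSS2-flox livers. Acss2 itself measured 50.6, 38.4 and 45.7 FPKM in ACSS2-HKO livers, against 87.8, 61.5 and 58.5 FPKM in ACSS2-flox livers, a log2 fold change of -0.60 ± 0.21 (SE, n = 3 each; limma adjusted p = 0.637), so the groups did not overlap. The log2 fold change was -0.42 without ACSS2-flox replicate 1. The mean in ACSS2-HKO livers was 64.8% of that in ACSS2-flox livers, and how far the gene was deleted in hepatocytes was not tested. For the 9818 genes whose mean reached 1 FPKM, limma on log2(FPKM + 1) placed 0 higher (0.0%) and 0 lower (0.0%) under the adjusted threshold of 0.05, and limma-voom on the recovered fragments called 0 as well. At an unadjusted p under 0.05, limma gave 598 genes higher (6.09%) and 147 lower (1.5%), and voom gave 698 in either direction (7.11%). The log2 fold change was above 0 in 66.0% of all tested genes. Along the first principal component, with 47.2% of the variance, ACSS2-flox replicate 1 stood at -47.7 and ACSS2-HKO replicate 3 at 27.6, while the other libraries lay between 2.51 and 8.49. These 2 libraries stand apart. For the log2 fold changes given below, the value without either one is added where it is of opposite sign or differs by more than 1.5 times. Medians over a whole list of markers, tested or not, were not refitted in this way, and their values in each library are given instead. Whether the 3 livers of a group are 3 animals is not in the labels, so p-values measure the spread between these libraries only.

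Orm1 was the most abundant orosomucoid in every library. It measured 1528, 1979.6 and 5549 FPKM in ACSS2-HKO livers, against 1042, 999.998 and 1064 FPKM in ACSS2-flox livers. All 3 ACSS2-HKO livers were above all 3 ACSS2-flox livers, but the first exceeded the highest ACSS2-flox liver by only 1.44-fold, and replicate 3 stood far above the other ACSS2-HKO livers. The means were 3019 ± 2203 FPKM in ACSS2-HKO livers and 1035 ± 32.6 FPKM in ACSS2-flox livers (SD, n = 3 each), a 2.92-fold ratio of means and a 1.90-fold ratio of medians. The log2 fold change was 1.31 ± 0.44 (SE), and 0.75 without ACSS2-HKO replicate 3. The ACSS2-flox livers differed from each other by 1.06-fold at most, the narrowest spread among the 5 genes.

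Orm2 was the orosomucoid with the greatest log2 fold change, but its ratio of medians was 4.52, against 4.63 for Orm3. It measured 196, 157 and 2202 FPKM in ACSS2-HKO livers, against 26.4, 64.8 and 43.4 FPKM in ACSS2-flox livers. The groups did not overlap, and the third ACSS2-HKO liver was 12.5 times the mean of the other 2. The means were 852 ± 1169.7 FPKM in ACSS2-HKO livers and 44.9 ± 19.3 FPKM in ACSS2-flox livers (SD, n = 3 each). The log2 fold change of 3.25 ± 0.89 (SE) was 2.03 without ACSS2-HKO replicate 3, and 1.71 without both that library and ACSS2-flox replicate 1, which was the lowest of the ACSS2-flox livers for this gene.

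Orm3, the least abundant of the cluster, measured 11.4, 8.36 and 46.3 FPKM in ACSS2-HKO livers, against 2.22, 2.498 and 2.47 FPKM in ACSS2-flox livers. Again every ACSS2-HKO liver lay above every ACSS2-flox liver, with at least a 3.35-fold gap, and the third was the highest. The log2 fold change was 2.38 ± 0.52 (SE, n = 3 each), and 1.67 without ACSS2-HKO replicate 3. The FPKM of Orm3 was computed over a length of 2486 bases, whereas the annotated transcript has 773, so its level relative to Orm1 and Orm2 reads low. Its plain ratio of FPKM between groups does not depend on the length. The log2 fold change does, because 1 is added to these low values. It was 2.73 with 0.1 added, 1.60 with 5 added and 2.78 by voom on the recovered fragments.

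Lcn2 showed the greatest log2 fold change of all 9818 tested genes. It measured 403, 222 and 6099 FPKM in ACSS2-HKO livers, against 45.9, 36.7 and 13.6 FPKM in ACSS2-flox livers. The groups did not overlap, and the third ACSS2-HKO liver was 19.5 times the mean of the other 2. In that liver Lcn2 ranked 6 among all genes by FPKM, against ranks of 1239, 1450 and 3207 in the ACSS2-flox livers. The ratio of means was 69.8, with means of 2241 ± 3342 FPKM in ACSS2-HKO livers and 32.1 ± 16.6 FPKM in ACSS2-flox livers (SD, n = 3 each), but the ratio of medians was 10.97. The log2 fold change of 4.79 ± 1.09 (SE) was 3.34 without ACSS2-HKO replicate 3.

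Lrg1 varied least among the ACSS2-HKO livers. It measured 439.5, 388 and 822 FPKM in ACSS2-HKO livers, against 148, 131 and 119 FPKM in ACSS2-flox livers. The lowest ACSS2-HKO liver stood 2.62-fold above the highest ACSS2-flox liver, and the third ACSS2-HKO liver was 1.99 times the mean of the other 2. The means were 549.7 ± 237 FPKM in ACSS2-HKO livers and 133 ± 14.6 FPKM in ACSS2-flox livers (SD, n = 3 each), and the log2 fold change of 1.97 ± 0.29 (SE) was 1.64 without ACSS2-HKO replicate 3. Its standard error was the smallest of the 5 genes.

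**Figure D1:**
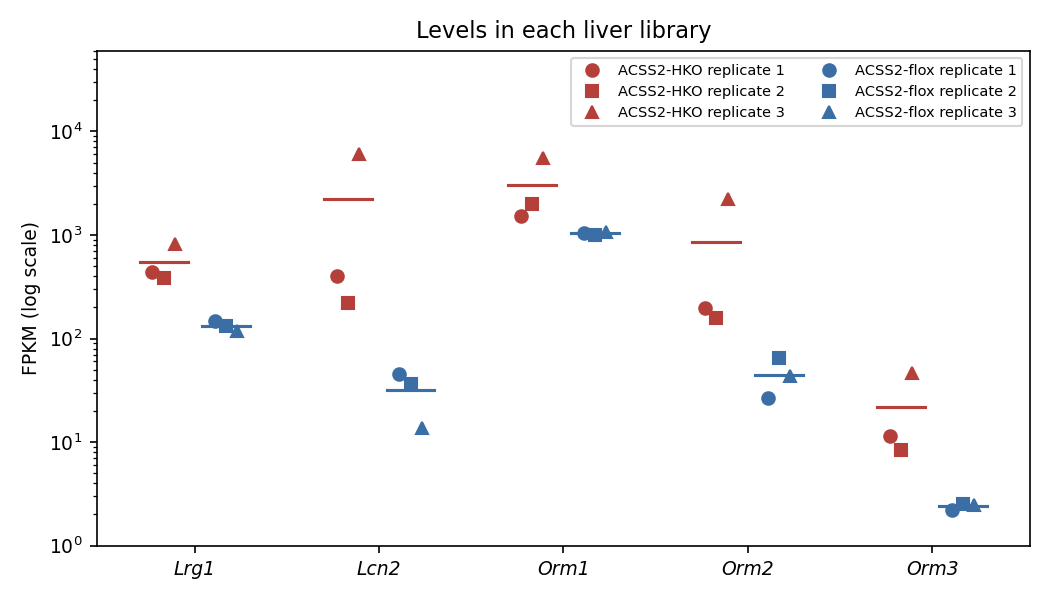
FPKM on a log axis for the 5 genes in each of the 6 liver libraries, with red for ACSS2-HKO, blue for ACSS2-flox, 1 marker shape per replicate number and bars at the group means. For each gene the ACSS2-HKO points lie above the ACSS2-flox points, and the ACSS2-HKO triangle, replicate 3, is the highest, reaching 6099 FPKM for Lcn2.

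For all 5 genes every ACSS2-HKO library was above every ACSS2-flox library, which held for 12.5% of all tested genes, while the opposite order held for 2.94%. Since the genes were picked on this contrast, nothing is read from that count. It was the same after median-ratio scaling between libraries, where 6.28% of genes had this order and 7.68% the opposite one, and after a correction for transcript length. Without ACSS2-flox replicate 1 the log2 fold changes were 2.05 for Lrg1, 5.12 for Lcn2, 1.31 for Orm1, 2.92 for Orm2 and 2.34 for Orm3. The order of size was the same from liver to liver only in part. Relative to the ACSS2-flox mean, the third ACSS2-HKO liver stood 190.0-fold for Lcn2, 49.1-fold for Orm2, 19.4-fold for Orm3, 6.20-fold for Lrg1 and 5.36-fold for Orm1. The first ACSS2-HKO liver stood 12.6-fold for Lcn2, 4.77-fold for Orm3, 4.37-fold for Orm2, 3.31-fold for Lrg1 and 1.48-fold for Orm1. The second stood 6.93-fold for Lcn2, 3.50-fold for Orm2, 3.49-fold for Orm3, 2.92-fold for Lrg1 and 1.91-fold for Orm1. Lcn2 led and Orm1 came last in each of the 3 livers, and the second ACSS2-HKO liver exceeded the first for Orm1 but not for the other 4 genes.

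**Figure D2:**
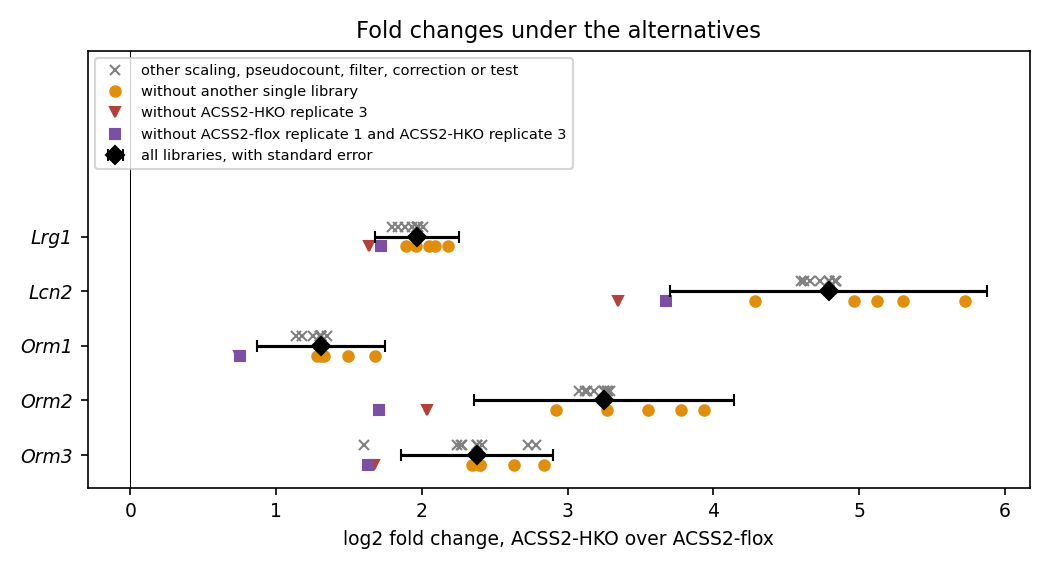
Log2 fold changes of the 5 genes, ACSS2-HKO over ACSS2-flox, with all 6 libraries (diamonds, with the standard error) and under each other way of processing. All values are above 0, and those without ACSS2-HKO replicate 3 (triangles) are the lowest or close to it for each gene, such as 0.75 for Orm1.

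The division of orosomucoid mRNA among the 3 genes differed between libraries. Orm1 made up 88.0, 92.3 and 71.2% of the summed orosomucoid FPKM in ACSS2-HKO livers, against 97.3, 93.7 and 95.9% in ACSS2-flox livers. Orm2 made up 11.3, 7.31 and 28.2% in ACSS2-HKO livers, against 2.46, 6.07 and 3.91% in ACSS2-flox livers. The groups did not overlap in either share, but the second ACSS2-HKO liver and the second ACSS2-flox liver were closer to each other than to any library of their own group. The Orm2 share averaged 15.6 ± 11.1% in ACSS2-HKO livers and 4.15 ± 1.82% in ACSS2-flox livers (SD, n = 3 each), and their difference of 11.5 percentage points was 5.16 without ACSS2-HKO replicate 3. Orm3 made up 0.659, 0.390 and 0.594% in ACSS2-HKO livers, against 0.207, 0.234 and 0.222% in ACSS2-flox livers. As a share of fragments, which does not involve the assumed lengths, Orm3 averaged 1.68 ± 0.418% in ACSS2-HKO livers and 0.697 ± 0.040% in ACSS2-flox livers. The length used for Orm2 was 917 bases, whereas its annotated transcript has 775, so its FPKM share reads low as well. With annotated lengths, the Orm2 share averaged 17.5 ± 12.1% in ACSS2-HKO livers and 4.82 ± 2.10% in ACSS2-flox livers.

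How far the counting could separate these near-identical genes is not given in the sources used here. Of all stretches of 50 bases in the annotated transcripts, 20.4% for Orm1, 21.8% for Orm2 and 3.59% for Orm3 also occurred in another orosomucoid transcript. For stretches of 100 bases these shares were 6.95% for Orm1 and for Orm2, and 0 of 674 stretches for Orm3. The shares of the 3 genes are therefore uncertain. Their summed level was 1735, 2145 and 7798 FPKM in ACSS2-HKO livers, against 1071, 1067 and 1109.9 FPKM in ACSS2-flox livers, without overlap.

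**Figure D3:**
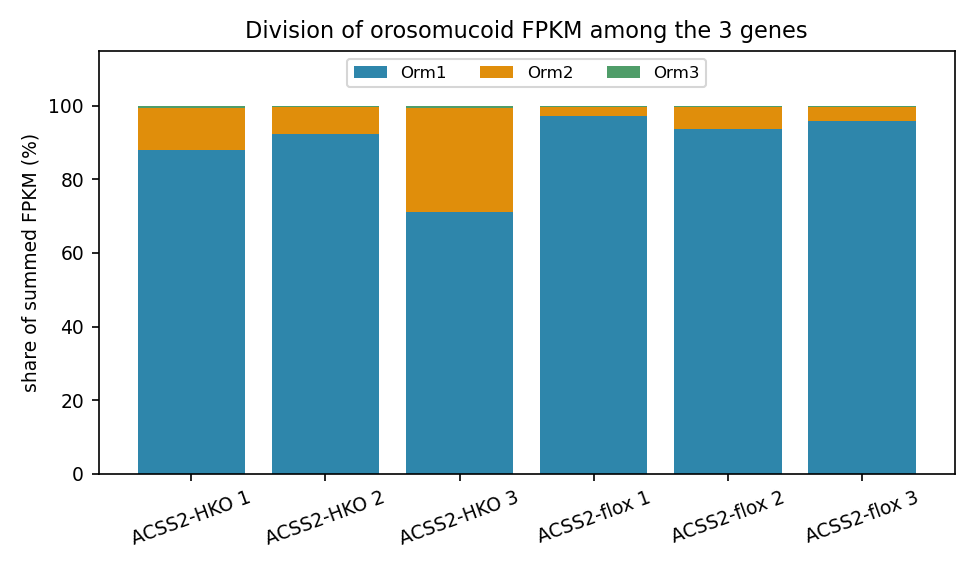
Share of the summed orosomucoid FPKM held by Orm1, Orm2 and Orm3 in each library, as stacked bars that add to 100%. Orm1 holds most of it throughout, and the Orm2 segment is widest in ACSS2-HKO replicate 3 at 28.2%.

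Together the 5 genes took 0.235, 0.244 and 1.28% of all fragments in ACSS2-HKO livers, against 0.109, 0.106 and 0.105% in ACSS2-flox livers. The 95% Wilson interval was 1.281 to 1.288% for the highest library and 0.104 to 0.107% for the lowest, and covers counting error only. The spread between the ACSS2-HKO libraries was far wider than these intervals. Orm3, with 186 to 235 fragments in ACSS2-flox livers, was the least deeply sampled, and Lcn2 had 446 to 1320 fragments there.

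The balance between genes also differed between livers. Lcn2 was 0.918, 0.574 and 7.42 times the level of Lrg1 in ACSS2-HKO livers, against 0.310, 0.281 and 0.115 times in ACSS2-flox livers, both per kilobase. Orm1 was 7.79, 12.6 and 2.52 times the level of Orm2 in ACSS2-HKO livers, against 39.5, 15.4 and 24.5 times in ACSS2-flox livers. Neither ratio overlapped between groups. The ratio of Orm1 to Orm2 reads high, because the length used for Orm2 exceeded that of its annotated transcript.

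The genes whose profile over the 6 libraries was nearest to each of the 5 were sought by the root-mean-square distance of log2(FPKM + 1) relative to the ACSS2-flox mean. Orm3 was nearest to Retnlg at a distance of 0.12, a resistin-like protein of neutrophils, which measured 5.21, 3.76 and 25.04 FPKM in ACSS2-HKO livers, against 0.488, 0.575 and 0.901 FPKM in ACSS2-flox livers. Orm1 was nearest to Alox5ap (0.13), the activating protein of 5-lipoxygenase, Lbp (0.17), the lipopolysaccharide-binding protein, and Hpx (0.19), the haem carrier hemopexin. Orm2 was nearest to the neutrophil chemokine Cxcl1 (0.58), the serum amyloid gene Saa1 (0.63) and the calprotectin subunit S100a8 (0.72), and Cxcl1 (0.48) and S100a8 (0.48) were also next for Orm3. Lcn2 had no close match, with Orm2 at 1.33, Saa1 at 1.60 and S100a8 at 1.60. Lrg1 was nearest to Ifi27l2b (0.32), Cbr3 (0.32) and Sdf2l1 (0.39). Few of these matches were kept under other settings. Without ACSS2-HKO replicate 3, of the 3 nearest genes 0 were kept for Lrg1, 2 for Lcn2 and 1 each for Orm1, Orm2 and Orm3. With a pseudocount of 0.1, 0 were kept for Lrg1, 1 each for Lcn2 and Orm3, and 2 each for Orm1 and Orm2. Between the 5 genes themselves, Lrg1 lay nearest to Orm3 (0.50) and Orm1 (0.55), and Lcn2 and Orm1 were farthest apart (2.70).

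Of the cytokines, receptors and kinases that act on acute phase genes, 13 of the 19 in the table were tested, 0 passed the adjusted threshold by limma or by voom, and the unadjusted one was passed by 2 that were higher and 1 that was lower, against 6.09% and 1.5% of all genes. Their median log2 fold change was 0.38, against 0.10 over all tested genes, and it was 0.23 without ACSS2-HKO replicate 3, 0.15 without ACSS2-flox replicate 1 and -0.04 without that library and ACSS2-HKO replicate 3. Il1r1, the signalling receptor of interleukin-1, measured 5.29, 6.16 and 6.29 FPKM in ACSS2-HKO livers, against 3.31, 3.09 and 3.32 FPKM in ACSS2-flox livers, with a log2 fold change of 0.70 ± 0.17 (SE, n = 3 each; limma adjusted p = 0.554). Il1b, interleukin-1 beta itself, read 0.92 ± 0.33 on the same scale, and 0.55 without ACSS2-HKO replicate 3. Lifr, the leukaemia inhibitory factor receptor, read -0.49 ± 0.20, and Il10rb, a receptor chain of the interleukin-10 family, read 0.38 ± 0.19, and 0.22 without ACSS2-HKO replicate 3. Il6 mRNA was near 0 in every liver, with 0, 0.0488 and 0.133 FPKM in ACSS2-HKO livers and 0, 0.0236 and 0 FPKM in ACSS2-flox livers.

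Of the transcription factors and feedback genes, 24 of 27 were tested, with 14 positive and 10 negative log2 fold changes, where 66.0% of all genes were positive, a median of 0.11 and 0 calls. That median was -0.05 under median-ratio scaling, 0.06 without ACSS2-HKO replicate 3, 0.23 without ACSS2-HKO replicate 2 and 0.33 without ACSS2-flox replicate 3. Socs3, the feedback inhibitor that STAT3 induces, measured 3.96, 5.62 and 6.28 FPKM in ACSS2-HKO livers, against 1.61, 1.95 and 2.17 FPKM in ACSS2-flox livers. The groups did not overlap, and the log2 fold change was 1.10 ± 0.20 (SE, n = 3 each; limma adjusted p = 0.452). Cebpb, a C/EBP factor of the acute phase response, ran the other way, with 45.9, 43.5 and 60.9 FPKM in ACSS2-HKO livers, against 94.0, 85.9 and 77.0 FPKM in ACSS2-flox livers, and its log2 fold change of -0.77 ± 0.19 (SE, n = 3 each) had a limma adjusted p of 0.556. Junb, a subunit of AP-1, and Nfkb2, an NF-kB subunit, both read 0.68, with standard errors of 0.23 and 0.28. Without ACSS2-HKO replicate 3, Nfkb2 read 0.36.

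**Figure D4:**
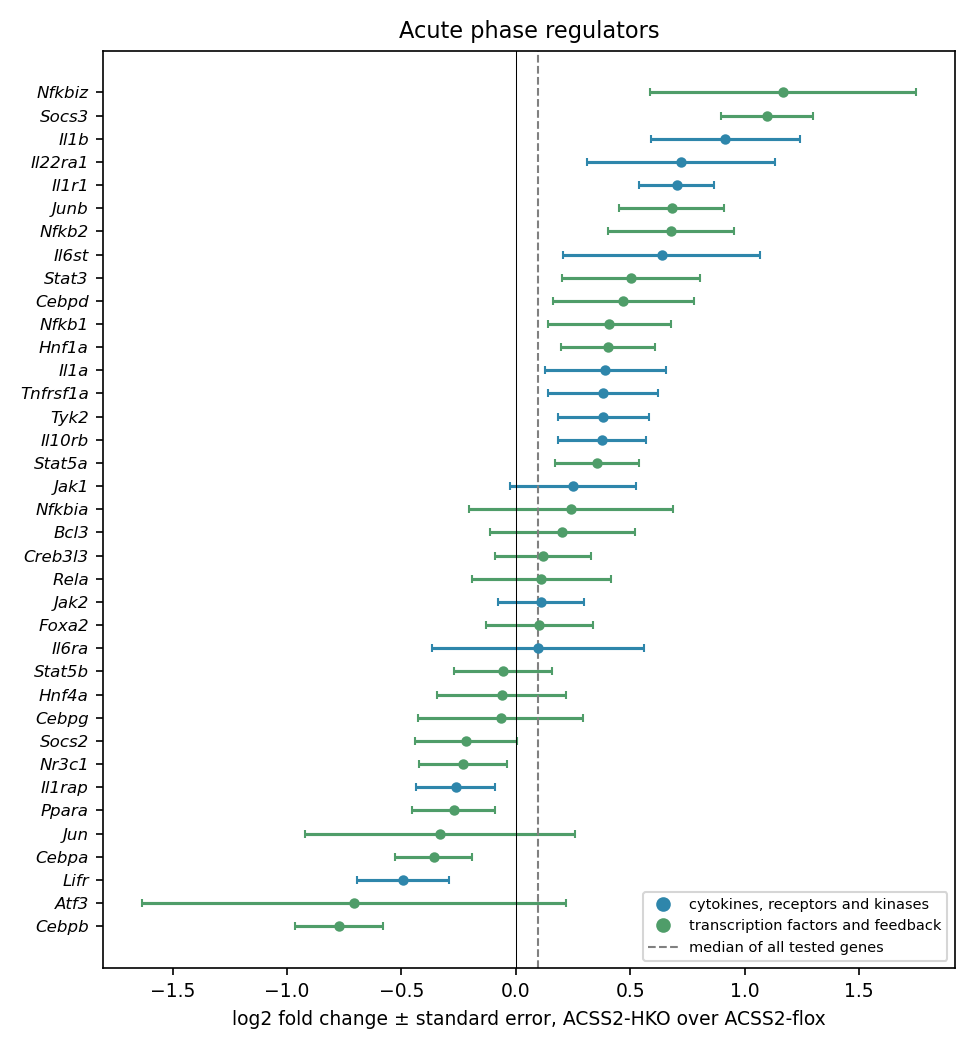
Log2 fold change ± standard error, ACSS2-HKO over ACSS2-flox, for the tested cytokines, receptors, kinases, transcription factors and feedback genes of the acute phase response, with a dashed line at the median of all tested genes (0.10). Socs3 lies near the top at 1.10 and Cebpb at the bottom at -0.77, and 0 of the genes passed the adjusted threshold.

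Receptors and partners of the proteins were tested for 12 of the 14 in the table, with 9 positive and 3 negative log2 fold changes, where 66.0% of all genes were positive, a median of 0.23 and 0 calls. The median was -0.00047 without ACSS2-flox replicate 1. Slc22a17, described as a receptor for Lcn2, was below the filter at 0.366, 0.523 and 0.412 FPKM in ACSS2-HKO livers, against 0.247, 0.112 and 0.196 FPKM in ACSS2-flox livers. Lrp2, the megalin receptor that takes up Lcn2 in kidney, stayed under 0.0085 FPKM in every library. Lrp1, a large endocytic receptor of hepatocytes, read 0.63 ± 0.19 (SE; limma adjusted p = 0.632). Mmp9, a gelatinase that forms a complex with Lcn2, measured 0.585, 0.686 and 3.85 FPKM in ACSS2-HKO livers, against 0.295, 0.423 and 0.342 FPKM in ACSS2-flox livers. For the partners of Lrg1, Acvrl1 (the type I receptor ALK1) read 0.50 ± 0.29, with 0.33 without ACSS2-flox replicate 1 and 0.18 without ACSS2-HKO replicate 3. The transforming growth factor beta receptors read 0.50 ± 0.44 for Tgfbr2 and 0.01 ± 0.28 for Tgfbr1, and the co-receptor Eng (endoglin) read 0.12 ± 0.32. Without ACSS2-flox replicate 1 these 3 were -0.01, -0.30 and -0.25, each of the opposite sign. Without ACSS2-HKO replicate 3, Tgfbr2 was 0.31 and Tgfbr1 -0.05. The asialoglycoprotein receptor genes, whose product clears desialylated plasma glycoproteins, read -0.16 ± 0.22 for Asgr1 and -0.27 ± 0.23 for Asgr2. Without ACSS2-flox replicate 1 they were 0.01 and -0.11, and without ACSS2-HKO replicate 3 they were -0.03 and -0.12.

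Most of the other lipocalins ran opposite to Lcn2 and the orosomucoids in these values. Of 23 tested, 20 had a negative log2 fold change, against 66.0% positive among all genes. The median was -1.08, and it was -0.64 without ACSS2-HKO replicate 3, -0.49 with a pseudocount of 5 and -1.69 by voom. The unadjusted threshold was passed by 11 that were lower and by 0 that were higher, where the shares over all genes were 1.5% and 6.09%, but 0 passed the adjusted test by limma or voom. Most of the list are major urinary proteins, pheromone carriers with near-identical copies, so single genes are uncertain and the counts are not of separate readings. The summed level of the list differed less than the median, with 5205 to 6263 FPKM in ACSS2-HKO livers and 6468 to 7653 FPKM in ACSS2-flox livers. Mup3 measured 299, 963.5 and 208 FPKM in ACSS2-HKO livers, against 1761, 1178 and 1207 FPKM in ACSS2-flox livers, with a log2 fold change of -1.79 ± 0.51 (SE, n = 3 each; limma adjusted p = 0.607). Mup2 read -2.22 ± 0.54, Mup16 -1.82 ± 0.54 and Mup12 -1.08 ± 0.27.

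Among the other positive acute phase proteins, 32 of the 34 tested had a positive log2 fold change, against 66.0% of all genes, with a median of 0.83 (0.58 without ACSS2-HKO replicate 3). The unadjusted threshold was passed by 16 that were higher and 2 that were lower, where the shares over all genes were 6.09% and 1.5%, with 0 calls by limma or voom after adjustment. In 17 of the 34 every ACSS2-HKO liver lay above every ACSS2-flox liver, as in 12.5% of all genes. This list overlaps with what was already known of these libraries and is no independent evidence of a direction. The proteinase inhibitor Serpina3n averaged 370.2 ± 123 FPKM in ACSS2-HKO livers and 169.6 ± 22.9 FPKM in ACSS2-flox livers (SD, n = 3 each), a log2 fold change of 1.08 ± 0.27 (SE), and the hyaluronan-associated Itih3 read 1.01 ± 0.23. The hepcidin genes were the 2 exceptions, at -2.43 ± 0.60 for Hamp and -3.37 ± 0.56 for Hamp2. Of 16 negative acute phase proteins, 15 had a negative log2 fold change with a median of -0.35 (-0.17 without ACSS2-flox replicate 1) and 0 calls, led by the corticosteroid-binding globulin gene Serpina6 at -1.41 ± 0.35 (SE; limma adjusted p = 0.554).

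Since the tissue was whole liver, more cells of a type and more RNA per cell cannot be told apart. Markers of neutrophils, which can contribute Lcn2 and Lrg1, were therefore read beside the 5 genes. Of 25 markers, 15 were below a mean of 1 FPKM, and 5 of the 10 tested passed that filter only through the ACSS2-HKO livers, so the list is described over all 25. The summed level of the list was 426 to 1167 FPKM in ACSS2-HKO livers and 311 to 546 FPKM in ACSS2-flox livers, so the groups overlapped, and most of it came from Wfdc21, which alone measured 374, 681 and 749 FPKM in ACSS2-HKO livers and 521, 391 and 294 FPKM in ACSS2-flox livers. All 25 markers had a positive log2 fold change, with a median of 0.56, where 66.0% of the genes tested across the table were positive. By limma or voom, 0 of the tested markers were called. Relative to the ACSS2-flox mean, the median of the 25 stood at 0.14, 0.27 and 1.34 on the log2(FPKM + 1) scale in ACSS2-HKO livers and within 0.03 of 0 in each ACSS2-flox liver. S100a8 measured 16.6, 20.7 and 138 FPKM in ACSS2-HKO livers, against 6.36, 4.25 and 3.46 FPKM in ACSS2-flox livers. The defining surface marker Ly6g measured 0.0302, 0.208 and 1.08 FPKM in ACSS2-HKO livers and was listed at 0 in all 3 ACSS2-flox livers, as were Mpo, Ctsg and Mrgpra2b. The median of these markers was highest in the same library as the 5 genes, and their part in the levels of Lcn2 and Lrg1 was not tested.

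Kupffer cell and macrophage markers read higher as well, with positive log2 fold changes in 18 of 18, a median of 0.86 (0.49 without ACSS2-HKO replicate 3) and 12 higher at an unadjusted p under 0.05, where 66.0% of all genes were positive and 6.09% were higher at that p, though 0 passed after adjustment by limma or voom. Their summed level was 946 to 2270 FPKM in ACSS2-HKO livers and 495 to 804 FPKM in ACSS2-flox livers, highest again in ACSS2-HKO replicate 3. The scavenger receptor Marco measured 31.7, 44.0 and 159 FPKM in ACSS2-HKO livers, against 7.50, 28.0 and 16.7 FPKM in ACSS2-flox livers. Hepatocyte markers had negative log2 fold changes in 11 of 12, with a median of -0.33. The part of these cell types in the levels of the 5 genes was not tested.

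**Figure D5:**
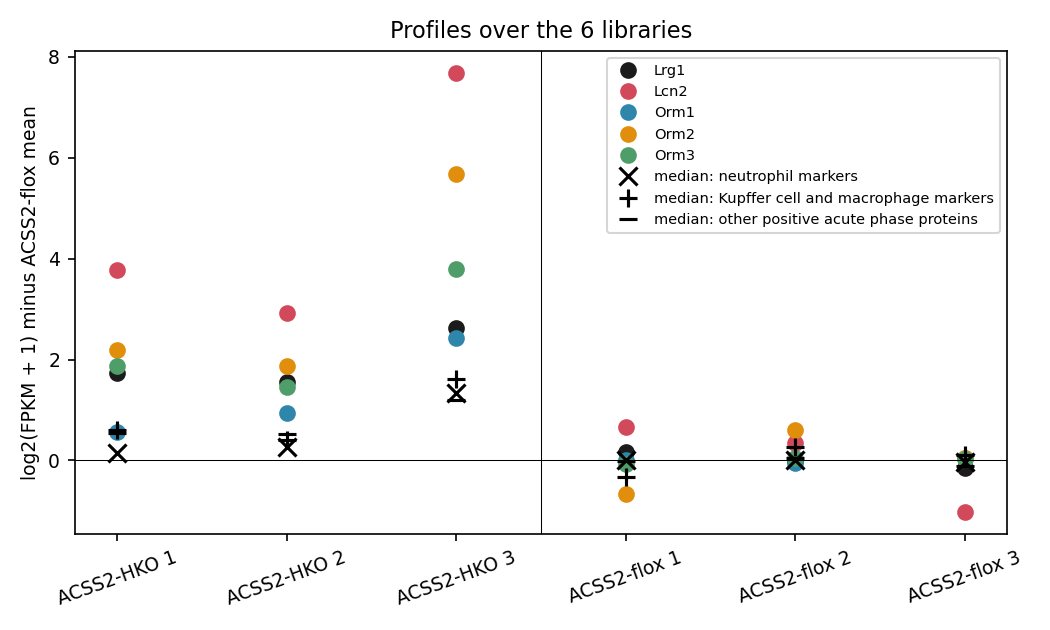
Level of each of the 5 genes in each library, as log2(FPKM + 1) minus the ACSS2-flox mean, beside the median of the neutrophil, macrophage and other acute phase lists, over all their genes in the table (black marks). ACSS2-HKO replicate 3 is highest for every gene and every list shown, and the neutrophil median there is 1.34.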

How the data were processed

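Total RNA from mouse liver was sequenced, and the authors deposited 1 table of FPKM values for 16135 genes in 6 libraries, as read from the deposited values. The build mm10 and the tool DESeq2 are listed, per the submitters' processing notes, with no role stated. The aligner, the counter and their annotation were not given in the sources used here. FPKM steps gave whole fragments within 0.01 for 99.99% of genes, which yielded the fragments, the gene lengths used and the library totals (33717125 to 39474527).

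The 9818 genes averaging 1 FPKM or more were tested with limma 3.58.1 (R 4.3.3) on log2(FPKM + 1) with a mean-variance trend and Benjamini-Hochberg adjustment at 0.05 over all of them; fold changes on this scale understate those of low genes. Both steps were tested on simulated data. Alternatives covered the pseudocount, filter, scaling, transcript length, limma-voom on recovered fragments, a replicate block and left-out libraries. The 5 genes, the gene lists and the tests were chosen with earlier results of these data known. Named genes were Acss2, the 5 genes, up to 4 of each list with the smallest p, the listed receptors, the 3 nearest profiles of each gene and the nearest genes on the chromosome. Il6, Ly6g, Mpo, Ctsg, Mrgpra2b and Wfdc21 fall outside that rule and were chosen after their values were seen. Identities were computed with Biopython 1.88, and motifs were found by a search for their letters in Python.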

Additional observations from a re-analysis of the deposited data

How the results depend on the processing

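The log2 fold changes of the 5 genes stayed positive under all 17 alternatives run for each, with ranges of 1.64 to 2.18 for Lrg1, 3.34 to 5.73 for Lcn2, 0.75 to 1.68 for Orm1, 1.71 to 3.94 for Orm2 and 1.60 to 2.84 for Orm3. The lowest value came without ACSS2-HKO replicate 3 for Lrg1, Lcn2 and Orm1, without that library and ACSS2-flox replicate 1 for Orm2, and with a pseudocount of 5 for Orm3. The count of genes higher at an adjusted p under 0.05 was 0 with all libraries and 0 to 3 when single libraries were left out, the 3 arising without ACSS2-HKO replicate 2, and the count of genes lower was 0 to 0. With the replicate number as a block, limma called 1 gene higher and 3 lower, among them the lipocalin Mup2 and 1 of the other positive acute phase proteins. The cause of either change was not tested. The deviations of same-numbered libraries had correlations of 0.013, 0.003 and -0.063, and those of differently numbered ones ran from -0.170 to 0.154. With only 3 libraries in each group, these values cannot decide whether the numbers pair the samples. At an unadjusted p under 0.05, 598 genes were higher and 147 lower, 80.3% higher, against 47.3% under median-ratio scaling, 50.1% with the length correction and 52.2% without ACSS2-flox replicate 1. The median of all genes was 0.10 as deposited and -0.04 under median-ratio scaling. The difference in the Orm3 share was 0.33 percentage points in FPKM and 0.98 in fragments, since the assumed length of Orm3 no longer enters. Leaving out libraries moved the Orm2 share difference between 5.16 and 15.6 percentage points and that of Orm1 between -16.0 and -5.46. Without a library, a group of 2 is assumed to vary like the other. The lymphocyte list had no gene left with a filter of 5 FPKM. Depth limits Orm3 most.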

Other observations

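The genes next to Lrg1 and Lcn2 on their chromosomes are given as values only. Because Lrg1 and Lcn2 were picked on this contrast, nearly any neighbour would read closer to the median of all genes. Lrg1 is flanked by Plin5, which codes for a lipid droplet coat protein, with a log2 fold change of 0.46 ± 0.28 (SE), and by Sema6b, a semaphorin, at 0.41 ± 0.22. Lcn2 is flanked by 1110008P14Rik at 0.48 ± 0.19 and by Ptges2, a prostaglandin E synthase, at 0.31 ± 0.19. By limma none of these 4 was called, with adjusted p values of 0.637 to 0.701. With single libraries left out, Plin5 ranged from 0.23 to 0.66, Sema6b from 0.12 to 0.53 and Ptges2 from 0.14 to 0.41. The orosomucoid cluster lies between Col27a1 and Akna, both below a mean of 1 FPKM and so without a fitted fold change. Akna starts 1246 bases beyond Orm2 and averaged 0.977 ± 0.664 FPKM in ACSS2-HKO livers and 0.496 ± 0.177 FPKM in ACSS2-flox livers (SD, n = 3 each).

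Other leucine-rich repeat proteins of plasma and matrix, the structural class of Lrg1, were tested for 8 of 13 genes, with a median log2 fold change of 0.37 (0.16 without ACSS2-flox replicate 1) and 0 calls by limma or voom. Cpn2, the regulatory subunit of carboxypeptidase N, measured 75.0, 72.0 and 73.4 FPKM in ACSS2-HKO livers, against 50.2, 62.9 and 49.4 FPKM in ACSS2-flox livers. The endotoxin co-receptor Cd14 measured 7.13, 3.91 and 76.3 FPKM in ACSS2-HKO livers, against 2.04, 4.89 and 3.11 FPKM in ACSS2-flox livers, so these groups overlapped. Liver endothelial cell markers, the cells in which Lrg1 is best known to act, had a median of 0.18, and -0.36 without ACSS2-flox replicate 1. Their summed level was 295, 242 and 276 FPKM in ACSS2-HKO livers, against 94.0, 323 and 384 FPKM in ACSS2-flox livers. The median was 0.24 for 12 stellate cell markers (-0.03 without ACSS2-flox replicate 1), 0.13 over all 15 lymphocyte markers in the table and -0.46 for 5 red cell markers, with 0 calls in each. Relative to the ACSS2-flox mean, the lymphocyte median stood at -0.02, -0.002 and 0.42 in ACSS2-HKO livers, against 0.18, -0.05 and -0.11 in ACSS2-flox livers. The red cell value was -0.02 without ACSS2-flox replicate 3 and -0.75 without ACSS2-flox replicate 1. Of 9 cholangiocyte markers only 2 were tested, with 0 calls, and the summed level of the list was 36.3 to 73.6 FPKM in ACSS2-HKO livers and 26.4 to 57.1 FPKM in ACSS2-flox livers.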
